A study of Homo sapiens with 8 samples.

Results

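The ENTPD family of ectonucleotidases, with CD39 (ENTPD1) as its best known member, was followed in leukaemia cells in which ENTPD1 itself was the target of an RNA hairpin. The members were the 8 genes named ENTPD1 to ENTPD8 in the platform annotation, out of 14884 genes with a name. All 8 were measured, each by 1 probe set, so no choice between probe sets was needed.

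The cells were MOLM-14 (MOLM14 in the titles, partly MOML14 elsewhere in the labels), an established human acute myeloid leukaemia line. Cells carried either a hairpin against ENTPD1 (shCD39, 4 arrays) or a scrambled hairpin (shCTRL, 4 arrays), and both groups had received doxycycline for 72 h, which per the series text switched the hairpins on. Without an array from cells that had no hairpin or no doxycycline, effects that both groups share cannot be seen. The labels call the 4 arrays of a group technical replicates, and speak of clones without saying how many, so the p-values given here reflect array-to-array spread, which may be technical.

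ENTPD enzymes strip phosphates from nucleoside triphosphates and diphosphates. ENTPD1, ENTPD2, ENTPD3 and ENTPD8 sit in the plasma membrane and face outward, where they act on extracellular ATP and ADP, whereas ENTPD4, ENTPD5, ENTPD6 and ENTPD7 work mainly inside the cell, in the endoplasmic reticulum, the Golgi apparatus and other organelles. ENTPD1 turns ATP and ADP into AMP, from which the ectoenzyme CD73 makes adenosine, and it is carried by many myeloid and lymphoid cells. A paralogue that took over from ENTPD1 would be looked for first among the enzymes of the cell surface.

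The RefSeq table of GRCh38.p14 lists 13 transcription starts for 7 of the 8 members, ENTPD4 being the member not matched. The 250 bases upstream of a start are shown for the hairpin's target and for the surface paralogues ENTPD2 and ENTPD8, whose values are described below. For ENTPD1, which has 5 listed starts, the first listed is shown (chr10:95755913-95756162, plus strand). The ENTPD2 stretch is chr9:137054062-137054311 and that of ENTPD8 chr9:137441358-137441607, both on the minus strand. Capitals mark the GC box GGGCGG on either strand.
ENTPD1: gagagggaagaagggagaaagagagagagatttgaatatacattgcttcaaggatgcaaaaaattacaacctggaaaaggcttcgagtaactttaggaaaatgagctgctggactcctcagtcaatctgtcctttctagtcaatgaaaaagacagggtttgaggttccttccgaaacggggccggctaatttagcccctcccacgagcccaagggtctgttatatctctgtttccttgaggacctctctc
ENTPD2: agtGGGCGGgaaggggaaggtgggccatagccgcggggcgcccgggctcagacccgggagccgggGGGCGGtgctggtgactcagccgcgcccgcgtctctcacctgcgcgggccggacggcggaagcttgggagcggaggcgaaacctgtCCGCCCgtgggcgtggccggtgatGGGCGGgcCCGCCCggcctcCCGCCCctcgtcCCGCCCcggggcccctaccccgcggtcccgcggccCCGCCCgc
ENTPD8: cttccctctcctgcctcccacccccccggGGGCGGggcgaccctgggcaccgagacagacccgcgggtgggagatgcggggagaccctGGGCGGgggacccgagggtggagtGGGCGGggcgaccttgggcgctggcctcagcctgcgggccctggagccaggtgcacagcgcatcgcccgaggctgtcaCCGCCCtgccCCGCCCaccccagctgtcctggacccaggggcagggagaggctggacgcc
The stretch of ENTPD1 holds no GC box, that of ENTPD2 holds 8 and that of ENTPD8 holds 5, in windows of 45.6%, 80.8% and 76.8% G and C. Which ENTPD1 start these cells use was not tested; the windows of its 5 starts ranged from 42% to 60.4% G and C and from 0 to 21 CpG. A GC box lay upstream of 42.6% of the 35116 listed starts of all genes. None of the 5 ENTPD1 windows held one, while each of ENTPD2, ENTPD3, ENTPD5, ENTPD6, ENTPD7 and ENTPD8 had at least 1 window that did. The full cAMP response element TGACGTCA was in none of the 13 windows and in 1.65% of all. Its shorter form TGACG, which the full element contains, was found in 2 ENTPD1 windows, the ENTPD5 window and 1 ENTPD6 window, against 21.2% of all. These matches describe letters in the reference sequence only.

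The values are RMA values on the log2 scale, on which a step of 1 is a doubling. They were compared with limma, and p-values were adjusted by Benjamini-Hochberg over all 14884 genes, with an adjusted p of 0.05 as threshold. No ENTPD member passed this threshold, and 14 of all genes did (0.0941%), 7 of them higher (0.047%) and 7 lower (0.047%) in shCD39. At an unadjusted limma p under 0.05 stood 3 members, ENTPD1 lower and ENTPD7 and ENTPD8 higher in shCD39, against 14.7% of all genes (6.54% higher and 8.13% lower). Of the 8 members, 5 had a difference above 0 and 3 below 0, with a median of 0.04; over all genes 52% were above 0 and the median was 0.01. ENTPD8 was the member whose groups did not overlap, with shCD39 higher; this held for 7.85% of all genes, and for 3.61% with shCD39 higher.

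**Figure D1:**
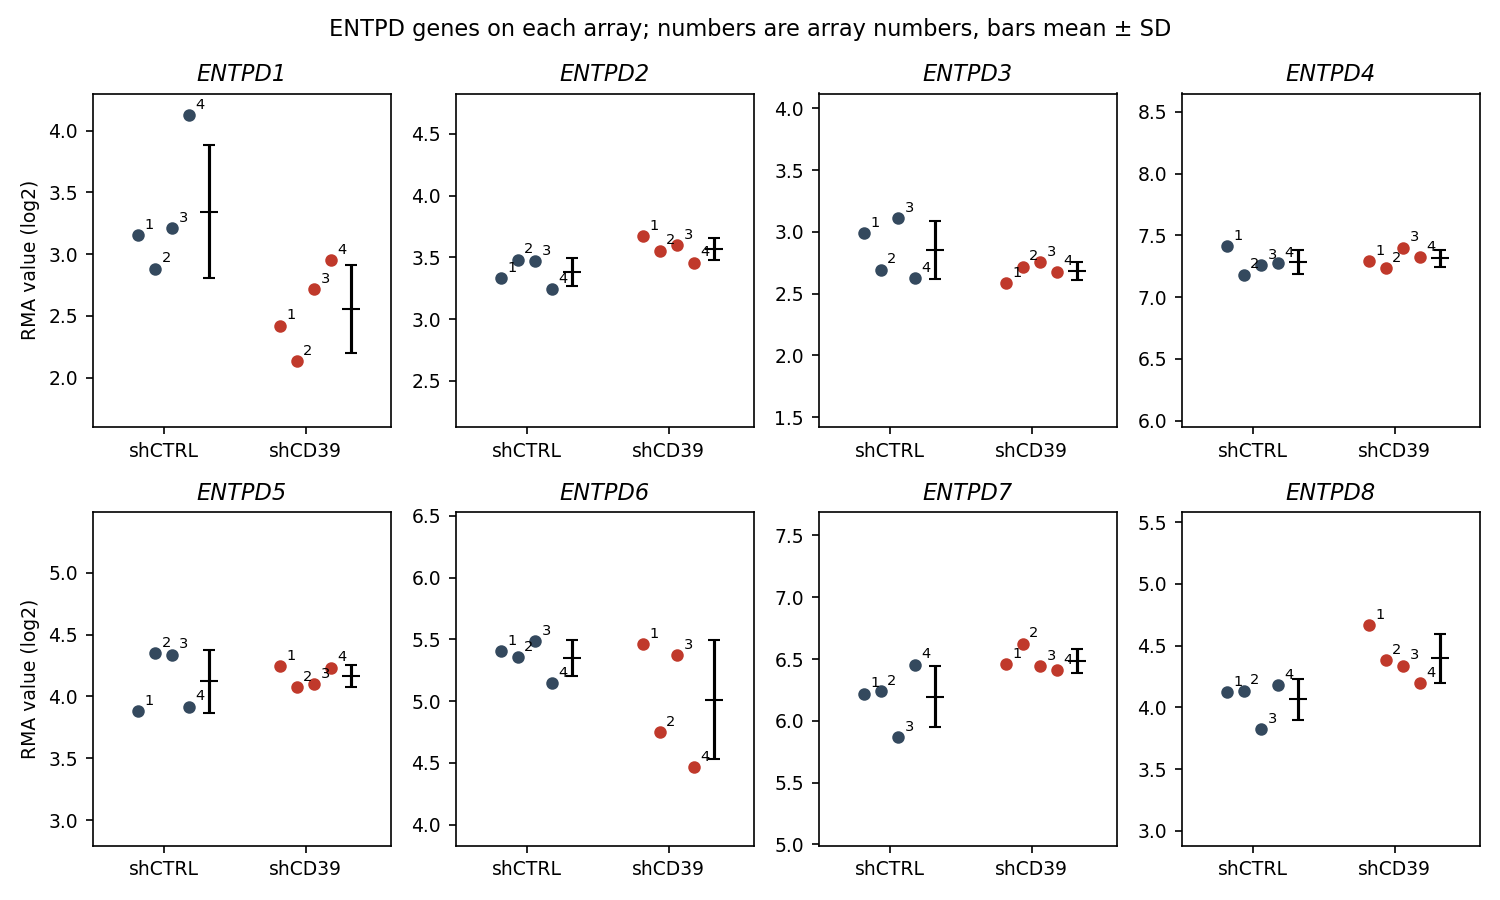
RMA values (log2) of the 8 ENTPD genes on each array, shCTRL in dark blue and shCD39 in red, with array numbers beside the points and mean ± SD (n = 4) at the right; every panel spans the same number of log2 units. ENTPD1 is lower in shCD39 with an overlap at shCD39 array 4 (2.95) and shCTRL array 2 (2.88), ENTPD8 is higher without overlap, and ENTPD6 splits within shCD39.

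ENTPD1, the target of the hairpin, had a lower mean in shCD39, short of the threshold. The shCTRL arrays 1 to 4 read 3.16, 2.88, 3.21 and 4.12, and the shCD39 arrays 2.42, 2.14, 2.72 and 2.95. The groups overlapped where shCD39 array 4 read above shCTRL array 2, and shCTRL array 4 stood well above the rest. The difference, shCD39 minus shCTRL, was -0.79 on the log2 scale (SE 0.25, 95% confidence interval -1.33 to -0.24, limma adjusted p = 0.178). This is a level in shCD39 of 0.579 times that in shCTRL, with an interval from 0.397 to 0.845.

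The spread of ENTPD1 was wide for this table. Its SD was 0.54 in shCTRL and 0.35 in shCD39 (n = 4 each), and the SD pooled over groups, 0.46, exceeded that of 97.7% of genes. Its difference was among the lowest of all, with 0.585% of genes further below 0, yet by p-value it ranked 711 of 14884. Without shCTRL array 4 the difference was -0.53 (limma adjusted p = 0.233), and without shCTRL array 2 it was -0.94 (adjusted p = 0.230). The 2-sided exact permutation p was 0.0571, where the smallest p that 4 against 4 arrays allow is 0.0286. The ENTPD1 mean over all arrays, 2.95, lay below 3.14, the median of all probe sets. The table used here has no detection call, so how much of this value is background was not tested.

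The transcript ENTPD1-AS1, named as antisense to ENTPD1, had a difference near 0. It read 2.98 to 3.16 in shCTRL and 2.92 to 3.14 in shCD39, a difference of -0.06 (SE 0.10, 95% confidence interval -0.28 to 0.17, limma adjusted p = 0.851). The groups overlapped over nearly their whole range. Its mean over all arrays, 3.07, also lay below the median of all probe sets, which limits what this value can show.

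Among the surface paralogues, ENTPD8 had the largest positive difference, again short of the threshold. ENTPD8 is an ectonucleotidase known best from liver and gut. The shCTRL arrays 1 to 4 read 4.12, 4.14, 3.82 and 4.18, and the shCD39 arrays 4.66, 4.38, 4.34 and 4.20. All 4 shCD39 values lay above all 4 shCTRL values, though shCD39 array 4 was separated from shCTRL array 4 only by the second decimal. The difference was 0.33 (SE 0.13, limma adjusted p = 0.265), or 1.26-fold with a 95% confidence interval from 1.03 to 1.53. The exact permutation p was 0.0286, the smallest the design allows.

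The ENTPD8 difference leaned on single arrays. Without shCD39 array 1, the highest, it was 0.24 (limma adjusted p = 0.446), and without shCTRL array 3, the lowest, 0.25 (limma adjusted p = 0.499). It stayed above 0 with every array left out in turn, with a highest value of 0.40 without shCD39 array 4.

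ENTPD2, a surface enzyme that prefers ATP over ADP, differed less. The shCTRL arrays 1 to 4 read 3.33, 3.48, 3.47 and 3.24, and the shCD39 arrays 3.67, 3.55, 3.60 and 3.46. Here shCD39 array 4 read below shCTRL arrays 2 and 3, and the other shCD39 arrays read above every shCTRL array. The difference was 0.19 (SE 0.11, limma adjusted p = 0.446), and the interval ran from 0.972-fold to 1.34-fold.

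ENTPD3, a surface enzyme described in neurons and pancreatic beta cells, had a lower mean in shCD39. The shCTRL arrays 1 to 4 read 2.99, 2.69, 3.11 and 2.63, and the shCD39 arrays 2.59, 2.72, 2.76 and 2.68. The shCTRL arrays fell into a higher and a lower pair, and the shCD39 arrays lay near the lower pair. The difference was -0.17 (SE 0.13, limma adjusted p = 0.590), with an interval that ends at 1.08-fold higher. Its mean over all arrays, 2.77, was also below the median of all probe sets. The antisense transcript ENTPD3-AS1 had a difference of 0.01 (SE 0.14, limma adjusted p = 0.992).

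**Figure D2:**
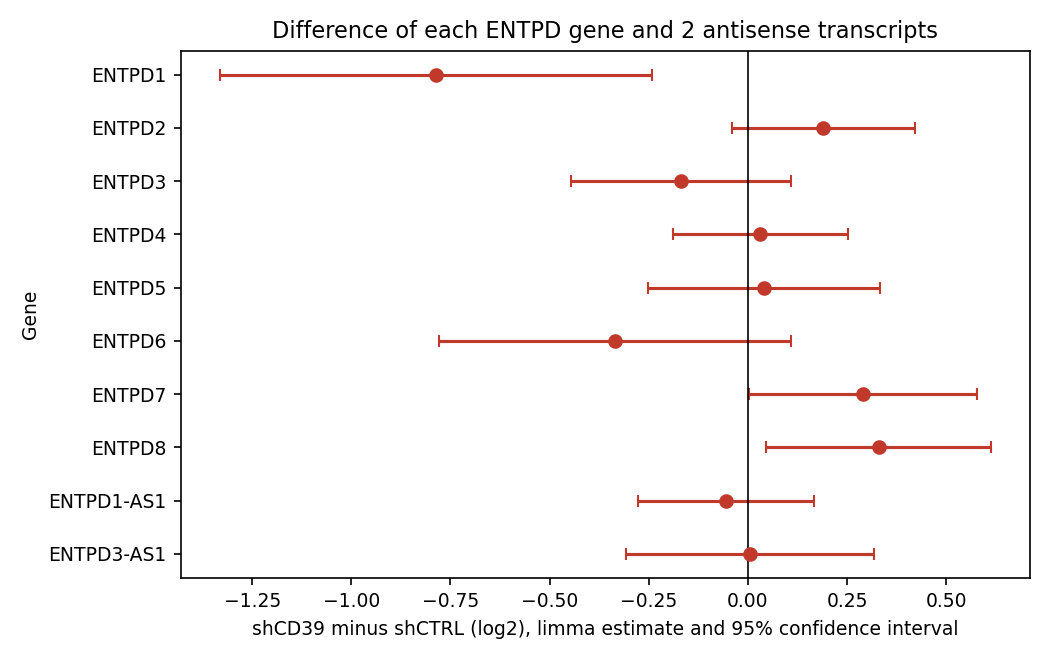
Differences between shCD39 and shCTRL (log2, limma estimate with 95% confidence interval, 4 arrays per group) for the 8 ENTPD genes and the antisense transcripts ENTPD1-AS1 and ENTPD3-AS1. The interval of ENTPD1 lies below 0 (-1.33 to -0.24), those of ENTPD7 (0.00 to 0.58) and ENTPD8 (0.05 to 0.61) lie above it before adjustment over all genes, and the others include 0.

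Among the intracellular members, ENTPD7 had a higher mean in shCD39. ENTPD7 is a nucleotidase of intracellular vesicles. The shCTRL arrays 1 to 4 read 6.22, 6.24, 5.87 and 6.46, and the shCD39 arrays 6.46, 6.62, 6.44 and 6.41. The shCD39 arrays lay close together, and shCTRL array 4 stood among them. The difference was 0.29 (SE 0.13, limma adjusted p = 0.338), or 1.22-fold with an interval from 1.00 to 1.49. Without shCTRL array 3, the lowest value, it was 0.18, and without shCTRL array 4 it was 0.38.

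ENTPD6, a nucleotidase of the Golgi apparatus that is also secreted, split the shCD39 group. The shCD39 arrays 1 and 3 read 5.46 and 5.37, and arrays 2 and 4 read 4.75 and 4.47. The shCTRL arrays 1 to 4 read 5.40, 5.36, 5.49 and 5.14, so that the higher pair lay within the shCTRL range and the lower pair beneath it. The difference of -0.34 (SE 0.20, limma adjusted p = 0.491) was therefore carried by shCD39 arrays 2 and 4. It was -0.15 without array 4, -0.25 without array 2, -0.48 without array 1 and -0.46 without array 3. The pooled SD of ENTPD6, 0.36, exceeded that of 92.8% of genes.

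ENTPD4 and ENTPD5 had differences near 0. ENTPD4, a nucleotidase of the Golgi apparatus and lysosomes that acts on UDP, read 7.41, 7.18, 7.26 and 7.27 on the shCTRL arrays and 7.29, 7.24, 7.40 and 7.33 on the shCD39 arrays. The groups covered the same range, and the difference was 0.03 (SE 0.10, limma adjusted p = 0.926). Its 95% confidence interval, 0.877-fold to 1.19-fold, was the narrowest of the family. ENTPD4 was also among the steadiest genes of the table, with 4.25% of genes having a lower pooled SD.

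ENTPD5 splits UDP in the endoplasmic reticulum, which serves the folding of glycoproteins. It read 3.88, 4.35, 4.34 and 3.92 on the shCTRL arrays and 4.25, 4.07, 4.10 and 4.23 on the shCD39 arrays. The shCTRL arrays fell into a lower and a higher pair with all shCD39 arrays between them. The difference was 0.04 (SE 0.13, limma adjusted p = 0.926), within 0.840-fold to 1.26-fold. Its sign changed without shCTRL array 1 (-0.04) or shCTRL array 4 (-0.03).

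For the question of compensation, the upper ends of the 95% confidence intervals give the size of a rise that these arrays leave possible. They were 1.53-fold for ENTPD8, 1.49-fold for ENTPD7, 1.34-fold for ENTPD2, 1.26-fold for ENTPD5, 1.19-fold for ENTPD4, and 1.08-fold for both ENTPD3 and ENTPD6. A doubling thus lay outside the interval of each of the 7 paralogues, on the RMA scale and for the average of a group. These intervals reflect array-to-array spread, which may be technical, so spread between cultures or clones may not be covered. They are not adjusted for the number of genes, and a probe set near background understates a change.

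**Figure D3:**
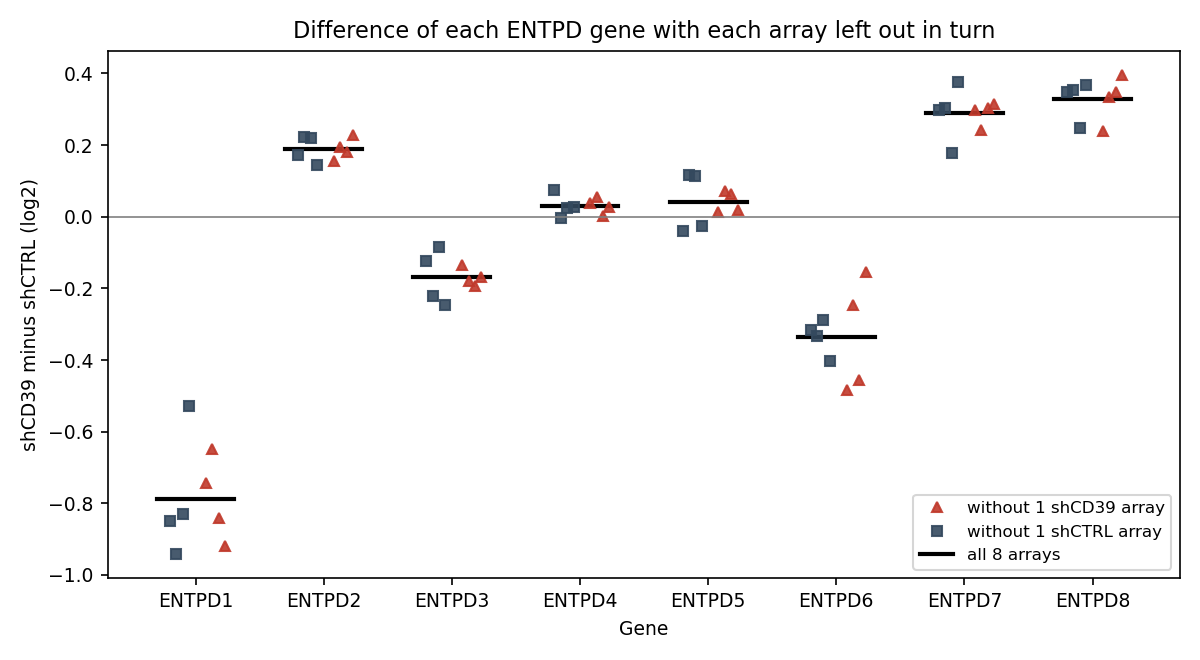
Difference between shCD39 and shCTRL (log2) of each ENTPD gene with all 8 arrays (black line) and with each array left out in turn (red triangles, without 1 shCD39 array; dark squares, without 1 shCTRL array). ENTPD1 ranges from -0.94 to -0.53 and ENTPD8 from 0.24 to 0.40, ENTPD6 from -0.48 to -0.15, and ENTPD4 and ENTPD5 lie on both sides of 0.

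Compensation was also looked for array by array, as a paralogue that reads higher where ENTPD1 reads lower. ENTPD2 had the most negative correlation with ENTPD1 over the 8 arrays (Pearson r = -0.86, exact permutation p = 0.00620; Spearman rho = -0.86, exact permutation p = 0.0107). Adjusted over the 7 relations computed, these were 0.0434 and 0.0750. The permutations, here and for the other paralogues, exchanged arrays across the groups, so their p-values also carry the difference between groups. After removal of the 2 arrays farthest from the ENTPD1 median, shCTRL array 4 and shCD39 array 2, r was -0.89. With shCTRL array 4 alone left out r was -0.73 (exact permutation p = 0.0645, adjusted 0.140), and 6 other single arrays left out also took the adjusted p above 0.05. After subtraction of each group's mean, r was -0.72 over all 8 arrays, which leaned on the arrays numbered 4. In both groups array 4 had the highest ENTPD1 and the lowest ENTPD2 value (2.95 and 3.46 in shCD39, 4.12 and 3.24 in shCTRL). Among shCD39 arrays 1 to 3, ENTPD2 was lowest in array 2 (3.55), where ENTPD1 was lowest too (2.14). A relation within the groups apart from the arrays numbered 4 was not tested. The adjusted p was likewise above 0.05 with cyclic loess normalization (0.0606) or median centring (0.0575), while r stayed at -0.87. Of the other 14883 genes, 0.470% had an r with ENTPD1 at or below that of ENTPD2. The values of 1 array share its RNA and its normalization, and the whole range of ENTPD2 was 0.43 log2 units.

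ENTPD8 and ENTPD7 followed ENTPD1 less evenly. For ENTPD8 r was -0.55 (exact permutation p = 0.145, adjusted 0.509) and rho -0.79 (exact permutation p = 0.0279, adjusted 0.0977). Its r was -0.81 without shCTRL array 4, -0.94 without the 2 farthest arrays and -0.08 after subtraction of the group means. For ENTPD7 r was -0.34 (exact permutation p = 0.384, adjusted 0.697) and rho -0.62 (exact permutation p = 0.115, adjusted 0.268), with shCTRL array 4 high in both genes. The r of ENTPD7 was -0.84 without shCTRL array 4, -0.77 without the 2 farthest arrays and 0.26 after subtraction of the group means. ENTPD3, ENTPD4, ENTPD5 and ENTPD6 had r of 0.15, 0.07, -0.36 and 0.15, with exact permutation p from 0.398 to 0.873, or 0.697 to 0.873 adjusted. The r of ENTPD3 was 0.69 without shCTRL array 4, 0.85 without the 2 farthest arrays and -0.33 after subtraction of the group means. Without both arrays numbered 4 the r of ENTPD3 was 0.79 and that of ENTPD6 0.72, over 6 arrays.

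**Figure D4:**
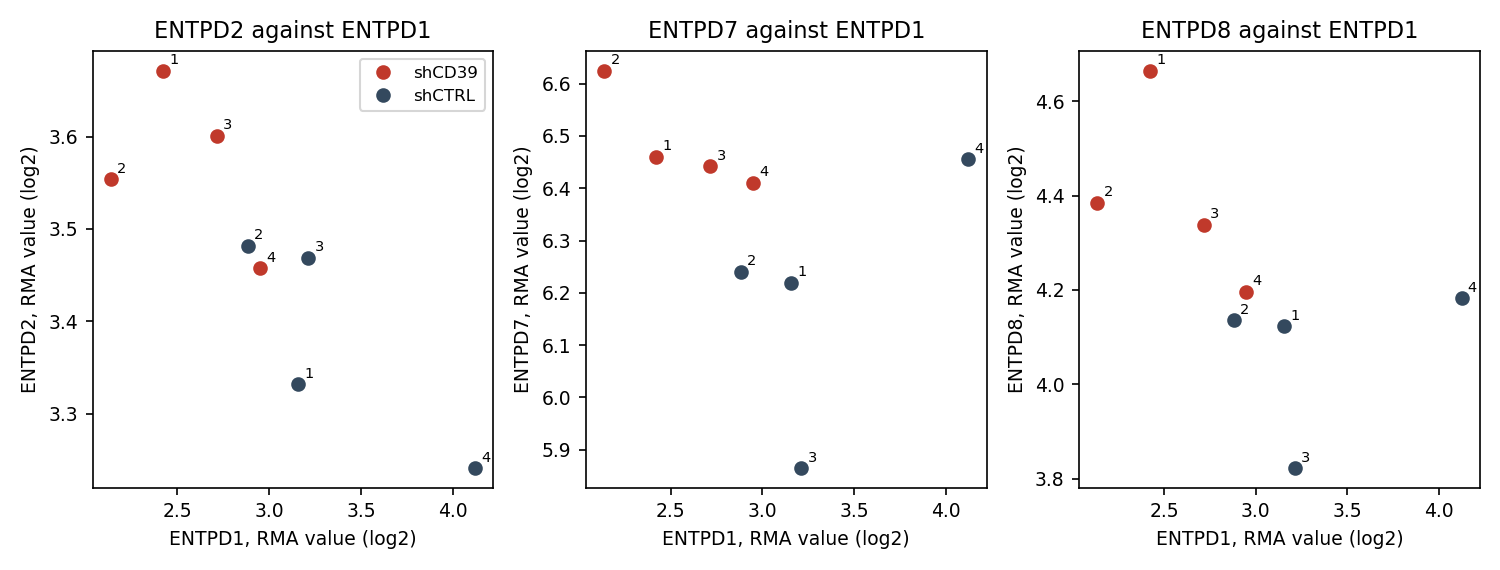
RMA values (log2) of ENTPD2, ENTPD7 and ENTPD8 against ENTPD1 on the same array (8 arrays, shCD39 red, shCTRL dark blue, array numbers beside the points). ENTPD2 is lower where ENTPD1 is higher (r = -0.86), while shCTRL array 4, with ENTPD1 at 4.12, lies off the trend of the other arrays for ENTPD7 and ENTPD8.

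The genes most like ENTPD1 over the 8 arrays were sought among 1930 named genes whose SD was at least 0.30, that of ENTPD1 divided by 2. The highest Pearson r were those of GINS1, a subunit of the replicative helicase complex (0.89), the histone methyltransferase NSD2 (0.89), the zinc finger gene ZNF770 (0.88), CCDC82 (0.88) and CALML5, a calmodulin-like protein (0.88). The lowest were those of DENND1C, an activator of RAB35 (-0.97), STMN2, a tubulin-binding stathmin (-0.94), ZER1 (-0.93), B9D2, a protein of the ciliary transition zone (-0.91), and the RNA-binding protein NOVA2 (-0.90). DENND1C read 5.95, 5.96, 5.89 and 5.32 on the shCTRL arrays and 6.38, 6.77, 6.35 and 6.18 on the shCD39 arrays. Its lowest value was in shCTRL array 4, where ENTPD1 was highest, and its highest in shCD39 array 2, where ENTPD1 was lowest. These genes were picked for their r, which is given as a description; none of the 10 passed the limma threshold, with adjusted p from 0.0822 to 0.540.

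The list of ectoenzymes around extracellular nucleotides mostly had positive differences. It also holds DPP4, a surface peptidase that anchors adenosine deaminase, and ENPP2 and ENPP6, which act mainly on lipids. Of 18 genes listed, 10 had a named probe set; 8 of these had a difference above 0 and 2 below, with a median of 0.17 against 0.01 over all genes. None passed the limma threshold, 4 had an unadjusted p under 0.05 (all higher, against 6.54% of all genes), and in 4 the groups did not overlap, all with shCD39 higher (3.61% of all genes). The measured ENPP genes (1.68 to 2.54) and DPP4 (3.06) had means over all arrays below 3.14, the median of all probe sets. This limits what their differences can show, and ENPP2 and ENPP4 were among the genes without overlap. BST1 (5.66), CD38 (5.85) and ADA (6.74) lay above that median. Among all genes with a mean above it, 47.1% had a difference above 0, against 52% without this filter. CD38, an ectoenzyme that consumes NAD, read 5.49, 5.44, 5.86 and 5.01 on the shCTRL arrays and 6.11, 6.27, 6.26 and 6.35 on the shCD39 arrays. All shCD39 values lay above all shCTRL values, by a mean of 0.80 (SE 0.16, limma adjusted p = 0.0801). Adenosine deaminase (ADA), which turns adenosine into inosine, differed by 0.50 (SE 0.13, adjusted p = 0.131) and ENPP5 by 0.28 (SE 0.11, adjusted p = 0.281). Without shCD39 array 4, CD38 (0.76, adjusted p = 0.0472) and ADA (0.58, adjusted p = 0.0421) passed the threshold, in a setting where 423 of all genes did (2.84%). CD73 (NT5E) was not analysed here.

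Receptors and channels of the pathway followed in small numbers. None of the 15 listed P2 nucleotide receptors had a named probe set. Of 12 genes for adenosine receptors and transport 4 were measured, with differences of 0.09 for the receptor ADORA2A, 0.06 for ADORA2B, -0.03 for ADORA1 and -0.02 for adenosine kinase (ADK), all with limma adjusted p of at least 0.790. Of 10 genes for channels that release ATP 6 were measured, 5 above 0 and 1 below with a median of 0.20. None of these had an unadjusted p under 0.05. CALHM2 had 0.24 (SE 0.15) and PANX2 0.22 (SE 0.18). PANX3 had 0.22 (SE 0.12), with no overlap of groups and shCD39 higher, which held for 3.61% of all genes. Its mean over all arrays, 3.21, lay close to 3.14, the median of all probe sets.

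Genes near the intracellular members, which handle glycoproteins and nucleotide sugars in the endoplasmic reticulum and Golgi apparatus, were measured for 7 of 27. Of these, 3 were above 0 and 4 below with a median of -0.00, and none passed the limma threshold. UGGT1 and UGGT2, the glucosyltransferases whose product UDP is the substrate of ENTPD5, had differences of -0.41 (SE 0.16, limma adjusted p = 0.262) and -0.40 (SE 0.17, adjusted p = 0.312). UGGT1 read 7.88 and 7.90 in shCD39 arrays 1 and 3 and 8.44 and 8.51 in arrays 2 and 4, against 8.44 to 8.71 in shCTRL. The lower pair here was arrays 1 and 3, the pair that was higher for ENTPD6. Without both arrays numbered 4, UGGT2 passed the threshold (-0.66, adjusted p = 0.0383), among 368 of all genes (2.47%) in that setting, which was chosen after seeing the data.

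Of 6 transcription factors reported to act at ENTPD1, 5 were measured and all 5 had differences below 0, with a median of -0.10. Over all genes 52% were above 0 and the median was 0.01. None passed the limma threshold. SP1, which binds GC boxes, read 7.61 to 7.81 in shCTRL and 7.22 to 7.50 in shCD39, a difference of -0.36 (SE 0.11, adjusted p = 0.157). CREB1, which binds the cAMP response element, read 6.88 to 7.02 and 6.48 to 6.73, a difference of -0.32 (SE 0.10, adjusted p = 0.182). In both genes the groups did not overlap, with shCD39 lower (4.23% of all genes). AHR, the receptor of dioxin-like ligands, had -0.10 (SE 0.20), and STAT3 (-0.05, SE 0.11) and GFI1 (-0.05, SE 0.12) lay near 0.

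**Figure D5:**
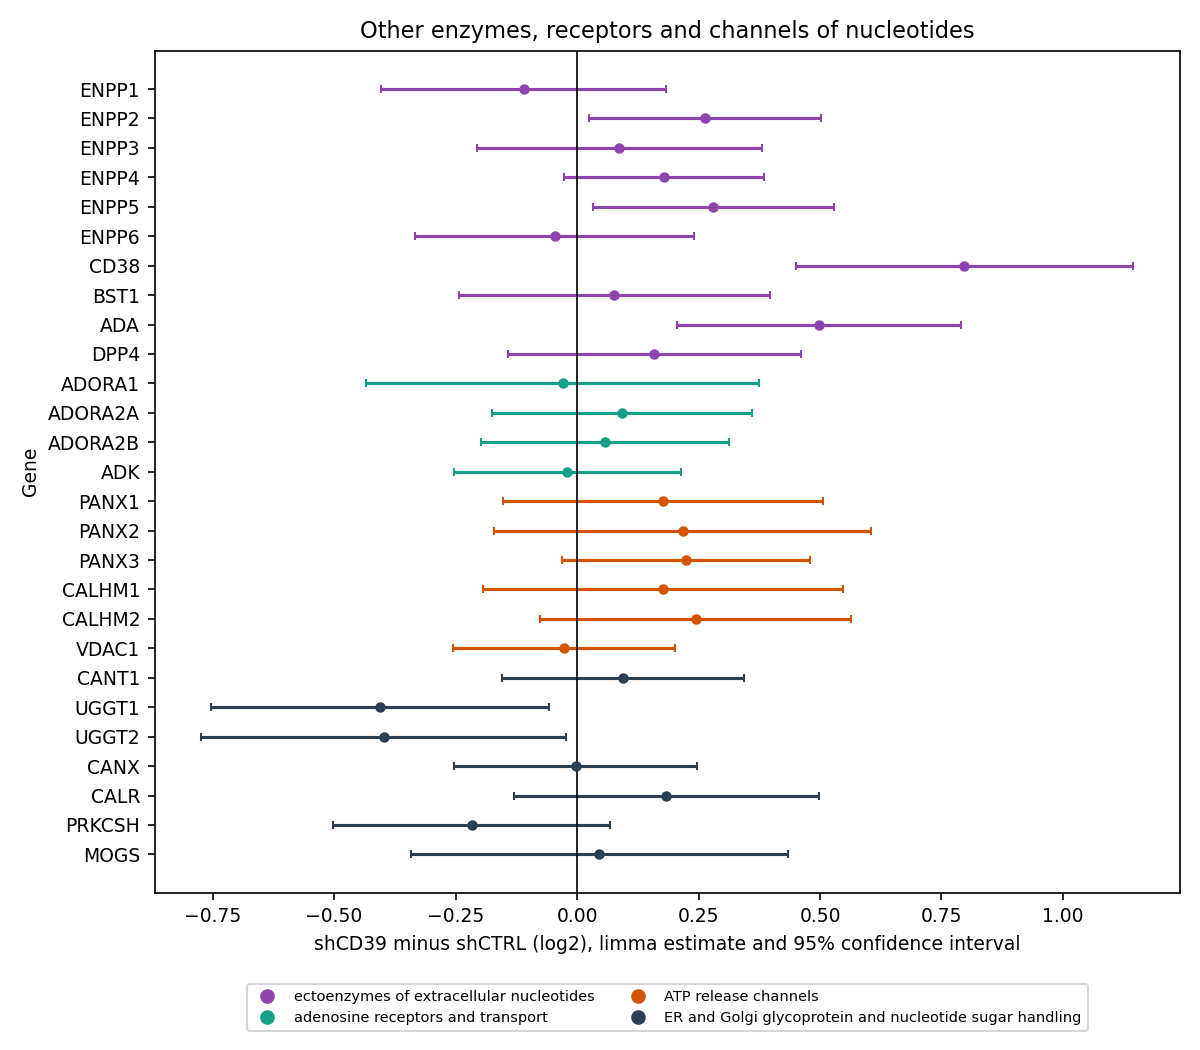
Differences between shCD39 and shCTRL (log2, limma estimate with 95% confidence interval, 4 arrays per group) for 27 measured genes around the ENTPD enzymes, coloured by list. CD38 (0.80) and ADA (0.50) lie farthest above 0 and UGGT1 (-0.41) and UGGT2 (-0.40) farthest below; none passed the adjusted threshold.

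The table held 53617 probe sets with array medians between 3.13 and 3.17 and correlations between arrays from 0.974 to 0.987; no pair of arrays was identical. Of 18 myeloid markers 9 had a named probe set, among them FLT3 (9.66 ± 0.07 in shCTRL, SD, n = 4) and LYZ (8.98 ± 0.18), while CD14 read 2.38 ± 0.13. The mean level of these 9 genes was 6.931 to 7.445 on the shCD39 arrays and 6.784 to 6.927 on the shCTRL arrays; 6 of 9 differences were above 0, CSF1R (1.36), LYZ (1.07) and TYROBP (1.06) leading, and those of MPO (-0.40), FLT3 (-0.29) and MEIS1 (-0.28) were below 0. Without shCD39 array 4, CSF1R, LYZ and TYROBP passed the limma threshold, as did CD38 and ADA, among the 423 genes (2.84%) called in that setting. The 6 measured fibroblast and epithelial markers were all above 0, as were 52% of all genes, with a mean level of 4.02 to 4.14 in shCD39 and 3.77 to 3.97 in shCTRL. The largest differences were those of THY1 (0.29), KRT8 (0.25) and EPCAM (0.22), while DCN (0.05) and KRT18 (0.01) lay near 0. Over all arrays, DCN (1.44) and EPCAM (2.42) had means below 3.14, the median of all probe sets. For the remaining marker lists the mean levels of the groups overlapped, and none was at 0. Of T and NK cell markers, 5 of 7 differences were above 0. For B and plasma cells this was 1 of 2, and for erythroid cells and megakaryocytes 3 of 4. Their largest differences were NKG7 (0.50), PAX5 (-0.27) and AHSP (0.26). Single genes could still separate: the groups did not overlap in NKG7, with shCD39 higher (3.61% of all genes). Nor did they in PAX5, with shCD39 lower (4.23% of all genes). In shCTRL, KRT18 (7.32) and PAX5 (6.83) read above the myeloid markers MEIS1 (6.48) and CSF1R (4.59). Levels of single markers thus do not set the lists apart. The part of any of the marker lists in the ENTPD values was not tested. In bulk RNA, fewer cells with a transcript and less of it per cell cannot be told apart.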

How the data were processed

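Gene expression was measured on 8 arrays, 4 shCD39 and 4 shCTRL. The table holds log2 values for each probe set, made by the authors with RMA in the oligo package, per the submitters' processing notes. Version and genome build: not given in the sources used here. RMA subtracts background, gives the probe intensities of every array the same distribution and then summarises probes, so differences in total RNA are lost. The summarised values need not share a distribution, and array medians here lay between 3.13 and 3.17. The number of arrays limits the precision.

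Names came from the platform annotation, updated through Entrez IDs in a RefSeq gene table (GRCh38.p14): 16098 of 53617 probe sets had 1 symbol, 0 several, and 37519 are unnamed here. Of a gene's probe sets the brightest on average was taken, which gave 14884 genes. The test was limma 3.58.1 (eBayes) under R 4.3.3, 2-sided, fitted on all genes, with Benjamini-Hochberg adjustment and without a filter. Correlations used exact permutations in Python 3.11.15. Upstream sequences came from RefSeq (GRCh38.p14). The procedure was run on simulated data with independent arrays and planted changes larger than any ENTPD difference. That run cannot tell how well differences of the size seen here are found.

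The ENTPD members and the gene lists were chosen with earlier results of these data known. Named are all members, antisense transcripts with a member's name, the 5 genes most and 5 least like ENTPD1 by Pearson r (leaving out small RNA, antisense, intergenic and pseudogene names), and per list up to 3 genes past the threshold or else with the largest difference. ADK, BST1, DPP4, ENPP2, ENPP4, ENPP6, FLT3, CD14, MPO, MEIS1, STAT3, GFI1, DCN and KRT18 were named after their values were seen.

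Alternatives were other normalizations (quantile, cyclic loess, median centring), leaving out dim genes, averaging probe sets, a prior with trend and robust fit, weights for arrays, a block by replicate number, and leaving out each array. A fit without either array numbered 4 was chosen after seeing the data.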

Additional observations from a re-analysis of the deposited data

Results flagged for a closer look

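Of the members, 1 array stood apart from the others of its group: ENTPD8 read 3.823 in shCTRL array 3, with the nearest shCTRL array at 4.123. Among the other genes named, shCTRL array 4 was the lone low array for DENND1C (5.316), ZER1 (5.836) and NOVA2 (2.363), genes picked for reading low where ENTPD1 was high. In shCD39 array 4, CCDC82 read 6.056, above the other shCD39 arrays, and ADORA2B at 6.648 and TYROBP at 9.058 read below them. ADORA2A was low in array 3 of both groups, at 4.725 in shCD39 and 4.842 in shCTRL. Chance alone marks about 1 in 20 groups this way, and 9 of 98 were marked.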

How the results depend on the processing

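No ENTPD member passed the limma threshold with all arrays or under any of the 17 alternatives, whereas 3 had an unadjusted p under 0.05 with all arrays and 1 to 3 under the alternatives. Of all genes, 14.7% had such a p with all arrays and 10.6% to 18.9% under the alternatives. The filter on dim genes left 6 members, of which 2 had such a p, against 18.3% of the genes kept. ENTPD1 kept its direction in all 16 that gave it a value, from -0.94 to -0.53 (adjusted p from 0.0802 to 0.331); the filter on dim genes removed ENTPD1 and ENTPD3. ENTPD2, ENTPD7 and ENTPD8 stayed above 0 and ENTPD3 and ENTPD6 below 0 in all that gave a value. ENTPD5 changed sign without both arrays numbered 4 (-0.050), and over single arrays left out ran from -0.039 to 0.12; ENTPD4 ran from -0.0030 to 0.075.

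The number of all genes past the threshold, 14, was 5 with quantile normalization (all higher, against 50% as deposited), 10 with cyclic loess (70% higher), 24 with the filter, 22 with the trend and robust prior, 124 with array weights (29.8% higher), 368 without both arrays numbered 4, and 0 to 423 with single arrays left out: 0 without shCTRL array 1 (1574 at an unadjusted p under 0.05) and 423 without shCD39 array 4. Over all probe sets, the deviations of same-numbered arrays had correlations from -0.03 to 0.06, which cannot show whether single genes deviate together. The labels name no batch behind a number, and the arrays were not treated as pairs. MPO was lower in arrays 1 and 3 and higher in arrays 2 and 4 of both groups. ENTPD1 itself was lowest in array 2 and highest in array 4 of both groups. With the replicate block 6 genes passed, ENTPD1 kept -0.79 (SE 0.13 in place of 0.25, limma adjusted p = 0.102) and the other members stayed on their side of the threshold.

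Correlations with ENTPD1 moved more. That of ENTPD2 was -0.87 with cyclic loess and -0.87 with median centring, -0.72 without both arrays numbered 4, all short of the adjusted threshold, and -0.91 to -0.73 over single arrays left out. That of ENTPD4 was -0.29 with quantile normalization and -0.27 with cyclic loess, and -0.12 to 0.28 over single arrays. That of ENTPD5 was 0.053 without both arrays numbered 4 and -0.54 to 0.080 over single arrays, and those of ENTPD6 (-0.15 to 0.30) and ENTPD3 (0.0023 to 0.69) over single arrays were 0.72 and 0.79 without both arrays numbered 4, where ENTPD7 had -0.90 and ENTPD8 -0.81. The causes were not tested. Calls in the gene lists changed as given above; array weights also called CSF1R, LYZ and TYROBP. Dim probe sets such as ENTPD1 and ENTPD3 limit what a difference can show.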
